A study of Mus musculus with 9 samples.

Results

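The genes of class II antigen presentation were followed in whole failing mouse hearts. They were chosen by name as 7 genes: H2-Aa, H2-Ab1, H2-Eb1, H2-DMa, H2-DMb1, Cd74 and Ciita. Each gene was read from the probe set that carries its symbol alone, which left 6 genes among the 30142 genes measured. The probe set of Cd74, the invariant chain, carries 2 symbols on this array, so Cd74 was not analysed here.

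Class II molecules are pairs of an alpha and a beta chain that show peptides from endocytosed protein to CD4+ T cells. H2-Aa and H2-Ab1 encode the pair called I-A in the mouse, and H2-Eb1 encodes the beta chain of the pair called I-E. H2-DMa and H2-DMb1 form a chaperone that exchanges the peptide held in the groove, and Ciita is the coactivator that switches the whole set on. Dendritic cells, B cells and many macrophages carry class II molecules at rest, and interferon gamma induces them in other cells through Ciita.

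The mice were immunodeficient nude mice, which lack a working thymus. In all of them the left anterior descending artery had been ligated for good, and treatment came 3 weeks later, when the ejection fraction lay below 50%; the hearts were taken 6 weeks after treatment. There were 3 arrays of hearts given the extracellular vesicles that 500000 cardiac progenitor cells had secreted in 48 hours, 3 arrays of hearts given 500000 of those cells, 1 array of a sham heart that was punctured by needle 3 times with nothing injected, and 2 arrays of hearts given alpha-MEM culture medium, called control here. The sham heart was infarcted like the others, so no array shows an uninjured heart. The titles place vesicle array 1, cell array 1, the sham array and control array 1 in an experiment numbered 9, and vesicle arrays 2 and 3, cell arrays 2 and 3 and control array 2 in an experiment numbered 1. The labels do not say whether the arrays come from different animals, so p-values measure the spread between these arrays only. The labels used here do not name the strain behind the nude phenotype.

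Values are log2 expression as deposited, and a difference is a difference between such values, so a difference of 1 is a doubling. Array medians over all probe sets lay between 4.89 and 4.92. For the negative control probe sets the 95th percentile lay between 7.18 and 7.28 on the 9 arrays, and between 6378 and 6790 genes exceeded it on each array. H2-Ab1 was above it on 8 of 9 arrays. The other 5 genes lay below it on all 9, where a probe set can still respond but its differences may be compressed. Heart muscle markers defined the tissue: all 5 measured of 6 (Myh6, Tnnt2, Tnni3, Myl2 and Ryr2) lay above that percentile.

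Class II promoters of mammals share an X box, bound by the RFX complex, and a downstream Y box, bound by NF-Y, and Ciita acts on the proteins seated there. The promoter stretches below are shown as background on these genes. They are RefSeq sequence of build GRCm38.p6, whose promoter table holds H2-Aa, H2-Eb1, H2-DMa and H2-DMb1. Capitals mark the letters searched, GNAAC for the core of the X box and ATTGG for the Y box.
H2-Aa: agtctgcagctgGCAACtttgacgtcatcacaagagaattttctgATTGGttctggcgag
H2-Eb1: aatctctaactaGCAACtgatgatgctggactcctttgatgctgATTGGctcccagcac
H2-DMb1: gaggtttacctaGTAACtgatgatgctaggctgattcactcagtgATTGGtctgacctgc
All 3 stretches lie on chromosome 17, before the annotated start of their gene. The H2-Aa stretch is chr17:34287857-34287916 on the minus strand, the H2-Eb1 stretch is chr17:34305764-34305822 on the plus strand, and the H2-DMb1 stretch is chr17:34153085-34153144 on the plus strand. The X letters begin 81, 91 and 94 bases before the start of H2-Aa, H2-Eb1 and H2-DMb1, and 28, 27 and 28 bases separate them from the Y letters.

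The pair of letters was sought on both strands in the 250 bases before each start, with 25 to 30 bases between X and Y, a spacing set after these promoters had been read. It was found in 3 of the 4 genes with a sequence and in 3 of 4 further class II chains (H2-Eb2, H2-Oa and H2-Ob, and not H2-DMb2). Of all 32851 promoter windows of that length, 0.877% held the pair, 79.6% the X letters and 33.8% the Y letters. Neither of the 2 annotated starts of H2-DMa had the pair. A match is a description of letters and not evidence of binding, and its relation to the values on the arrays was not tested.

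**Figure D1:**
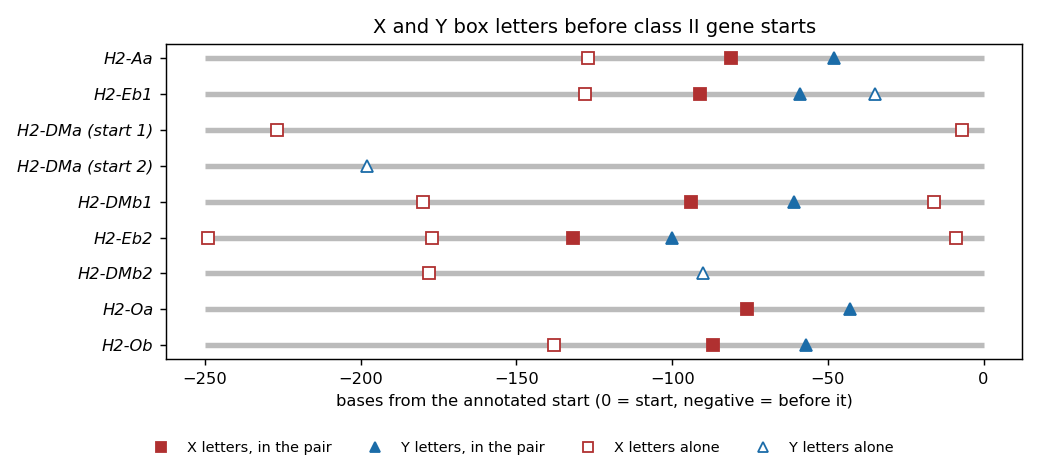
Positions of X letters (squares) and Y letters (triangles) in the 250 bases before the annotated start of class II genes, in bases from the start on the x axis; filled symbols form the pair with 25 to 30 bases between them. The pair sits between 43 and 94 bases before the start in H2-Aa, H2-Eb1, H2-DMb1, H2-Oa and H2-Ob, farther out in H2-Eb2, and is not seen in H2-DMa and H2-DMb2.

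The I-A genes varied most among the 6. H2-Ab1, the I-A beta chain, stood at log2 values of 7.21, 7.17 and 7.65 on vesicle arrays 1 to 3, 7.56, 7.97 and 7.64 on cell arrays 1 to 3, 7.53 on the sham array, and 7.52 and 8.55 on control arrays 1 and 2. H2-Aa, the I-A alpha chain, stood at 5.52, 5.41 and 5.84 on the vesicle arrays, 5.76, 6.20 and 5.88 on the cell arrays, 5.82 on the sham array, and 5.80 and 6.76 on the control arrays. Vesicle arrays 1 and 2 were the lowest of all 9 for both genes and control array 2 the highest, whereas control array 1 lay beside the sham array and cell array 1. From the lowest to the highest array H2-Ab1 spanned 2.60-fold and H2-Aa 2.55-fold, a wider span than in 99.5% of all genes for each; the median gene spanned 0.20 on the log2 scale.

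H2-Eb1, the I-E beta chain, stood at 5.42, 5.48 and 5.48 on the vesicle arrays, 5.45, 5.54 and 5.48 on the cell arrays, 5.48 on the sham array, and 5.44 and 5.68 on the control arrays. Apart from control array 2 its values were nearly level, and 4 of the 9 arrays shared the very same deposited value, which narrows its spread.

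Of the peptide-exchange chaperone, H2-DMa stood at 6.14, 6.08 and 6.24 on the vesicle arrays, 6.19, 6.33 and 6.19 on the cell arrays, 6.16 on the sham array, and 6.14 and 6.44 on the control arrays. H2-DMb1 stood at 4.87, 4.82 and 5.09 on the vesicle arrays, 5.07, 5.15 and 5.06 on the cell arrays, 5.07 on the sham array, and 5.07 and 5.40 on the control arrays. Both chains were highest on control array 2 and next highest on cell array 2. H2-DMb1 was clearly lower on vesicle arrays 1 and 2 than on any other array, while H2-DMa was not.

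Ciita, the coactivator, stood at 5.60, 5.55 and 5.66 on the vesicle arrays, 5.66 on each of the 3 cell arrays, 5.62 on the sham array, and 5.58 and 6.11 on the control arrays. It was raised on control array 2 alone, by 0.45 above the next highest array, and its other 8 arrays lay between 5.55 and 5.66. Its 3 cell arrays share the very same deposited value, which narrows its spread.

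**Figure D2:**
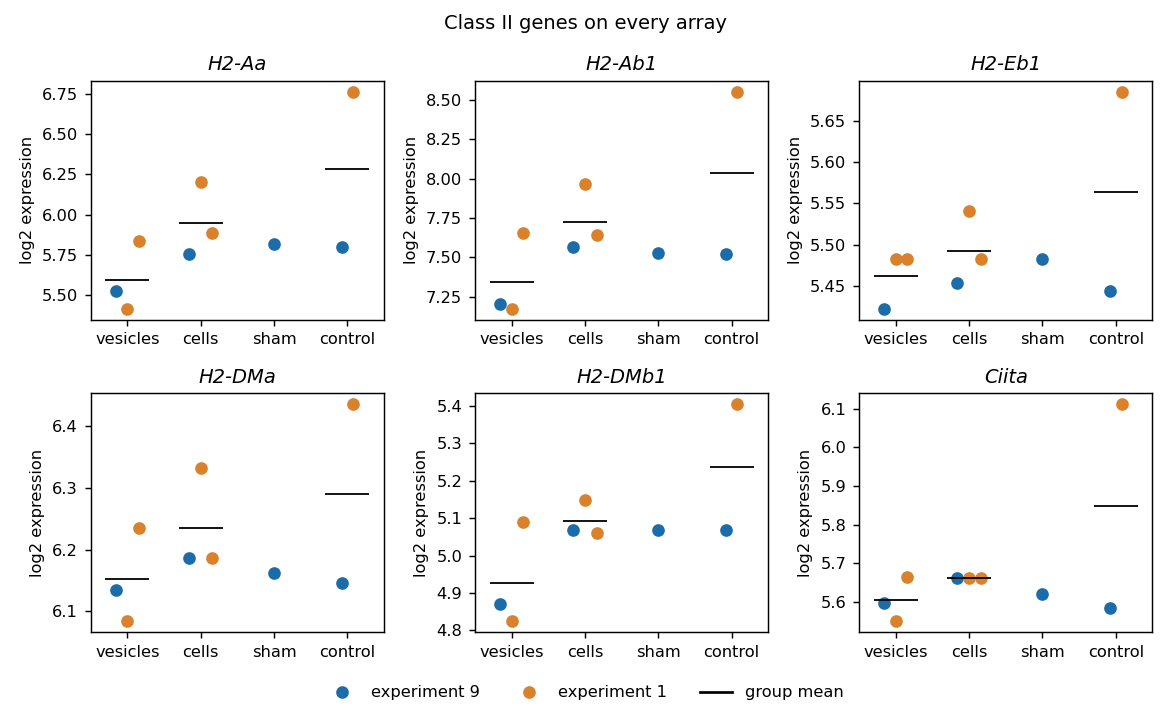
Log2 expression (y axis, a separate scale for each gene) of the 6 class II genes on each of the 9 arrays, by group on the x axis, with points coloured by experiment and a bar at the mean of each group with more than 1 array. Control array 2, of experiment 1, is the highest point in every panel, at 8.55 for H2-Ab1 and 6.11 for Ciita.

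The 6 genes therefore shared a profile over the arrays. With each array taken relative to the mean of its experiment, Pearson's r for the 15 pairs of genes ran from 0.845 to 0.995 over the 9 arrays, with a median of 0.91. Without control array 2 the range was 0.34 to 0.99 with a median of 0.78 over 8 arrays, so part of the likeness rests on that array. These correlations describe the 9 libraries, which also share their normalization. Control array 2 was the highest of the 9 for 6 of 6 genes, which held for 24.5% of all genes, and vesicle array 2 the lowest for 5 of 6, which held for 7.76% of all genes.

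The first comparison was of vesicle hearts with control hearts. All 6 genes had a fitted difference below 0, as had 60.3% of all genes, and the median over the 6 was −0.30, against −0.012 over all genes. H2-Ab1 was lower by a fitted −0.77 ± 0.26 (SE; 3 vesicle and 2 control arrays), or 0.59-fold, and H2-Aa by −0.76 ± 0.25, also 0.59-fold. H2-DMb1 stood at −0.33 ± 0.11, Ciita at −0.27 ± 0.13, H2-DMa at −0.16 ± 0.086 and H2-Eb1 at −0.12 ± 0.050. None passed limma's test over all genes, where the adjusted p was 0.676 for each of the 6 and 0% of the 30142 genes were called (0 genes, the smallest adjusted p being 0.235). The unadjusted p was under 0.05 for 3 of 6 genes (H2-DMb1, H2-Aa and H2-Ab1), against 4.53% of all genes lower at that level. The groups overlapped for all 6, because control array 1 lay within the range of the vesicle arrays; 7.17% of all genes were lower without overlap.

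The size of this difference was unlike in experiments 9 and 1. Each experiment has 1 control array, so an effect of the experiment cannot be told apart from the difference between those arrays. In experiment 9, vesicle array 1 lay below control array 1 by 0.31 for H2-Ab1, 0.28 for H2-Aa and 0.20 for H2-DMb1, and the differences of H2-Eb1, H2-DMa and Ciita were −0.021, −0.0100 and 0.012. In experiment 1 the mean of vesicle arrays 2 and 3 lay below control array 2 by 1.14 for both I-A genes, 0.45 for H2-DMb1, 0.50 for Ciita, 0.28 for H2-DMa and 0.20 for H2-Eb1. Without control array 2, in a fit that takes the spread of its lone control array from the other groups, the fitted difference was −0.33 ± 0.27 for H2-Ab1, −0.34 ± 0.26 for H2-Aa and 0.016 ± 0.055 for Ciita. The median over the 6 genes was then −0.10. Without control array 1 the median was −0.48 and Ciita stood at −0.51. That fit has control array 2 as its lone control and also takes its spread from the other groups.

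**Figure D3:**
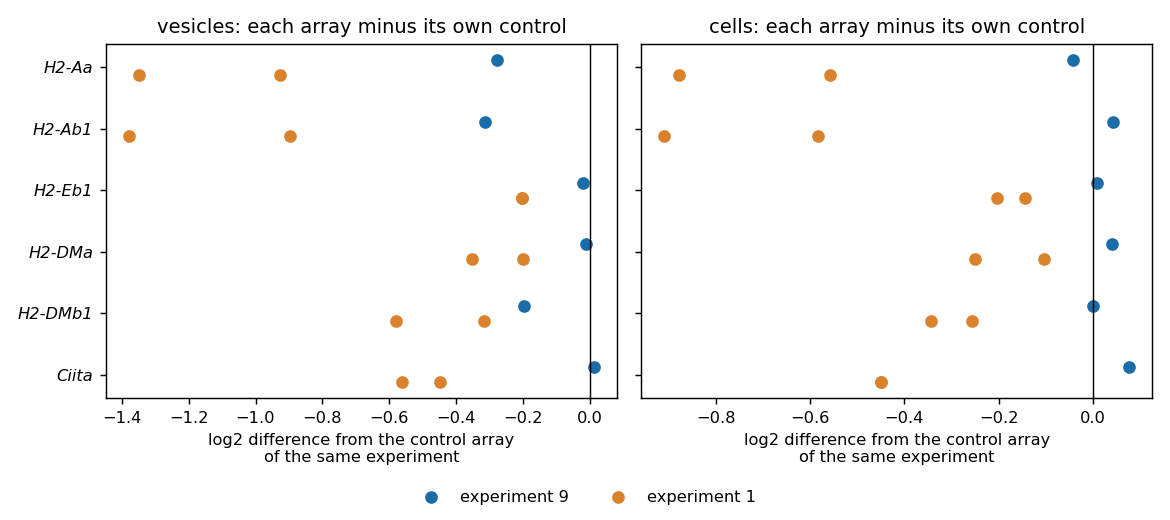
Log2 difference (x axis) of each vesicle array (left) and each cell array (right) from the control array of its own experiment for the 6 class II genes; points are single arrays, coloured by experiment, and coinciding points overlie each other. Vesicle array 1 lies below its control by 0.31 for H2-Ab1 and 0.28 for H2-Aa, cell array 1 lies within 0.08 of its control for every gene, and all arrays of experiment 1 lie below control array 2.

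Cell hearts were compared with the same control arrays, which the comparisons share. All 6 genes had a fitted difference below 0, as had 55.7% of all genes, with a median of −0.19 over the 6 and −0.0064 over all genes. H2-Aa stood at −0.40 ± 0.25 and H2-Ab1 at −0.39 ± 0.26 (SE; 3 cell and 2 control arrays), Ciita at −0.21 ± 0.13, H2-DMb1 at −0.17 ± 0.11, H2-Eb1 at −0.090 ± 0.050 and H2-DMa at −0.075 ± 0.086. None passed, with limma's adjusted p from 0.683 to 0.851, none had an unadjusted p under 0.05, and 0% of all genes were called (0 genes, with 5.05% lower at an unadjusted p under 0.05). The groups overlapped for all 6, against 5.57% of all genes lower without overlap. In experiment 9, cell array 1 differed from control array 1 by −0.043 for H2-Aa, 0.043 for H2-Ab1 and 0.078 for Ciita, and by 0.0000 to 0.041 for the other 3 genes. Without control array 2 the direction turned for all but H2-DMb1, at fitted differences of 0.019 for H2-Aa, 0.055 for H2-Ab1, 0.0096 for H2-Eb1, 0.057 for H2-DMa and 0.075 for Ciita, with a median of 0.037. The difference between cell and control hearts rested on control array 2.

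The difference between vesicle hearts and cell hearts takes no control value, although its error comes from the fit that holds the control arrays. All 6 genes had a fitted difference below 0, as had 50.6% of all genes, with a median of −0.12 over the 6 and −0.0007 over all genes. H2-Ab1 stood at −0.38 ± 0.23 (SE, 3 arrays each), with −0.36 in experiment 9 and −0.39 in experiment 1. H2-Aa stood at −0.36 ± 0.22, with −0.23 and −0.42 in experiments 9 and 1, and H2-DMb1 at −0.17 ± 0.094, with −0.20 and −0.15. H2-DMa stood at −0.083 ± 0.077, Ciita at −0.059 ± 0.12 and H2-Eb1 at −0.030 ± 0.044. None passed limma's test (adjusted p from 0.920 to 0.973), 0% of all genes were called (0 genes, with 2.59% lower at an unadjusted p under 0.05), and the groups overlapped for each gene, since vesicle array 3 exceeded at least 1 cell array; 2.56% of all genes were lower without overlap. The 95% intervals ran from −0.96 to 0.20 for H2-Ab1 and from −0.91 to 0.20 for H2-Aa, and both include 0. Without vesicle array 2 H2-Ab1 stood at −0.20 and H2-Aa at −0.19, and without cell array 1 Ciita stood at 0.018. Without either one of the control arrays, the SE was 0.17 for H2-Ab1 and 0.16 for H2-Aa, both differences were the same, and limma's adjusted p was 0.816.

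**Figure D4:**
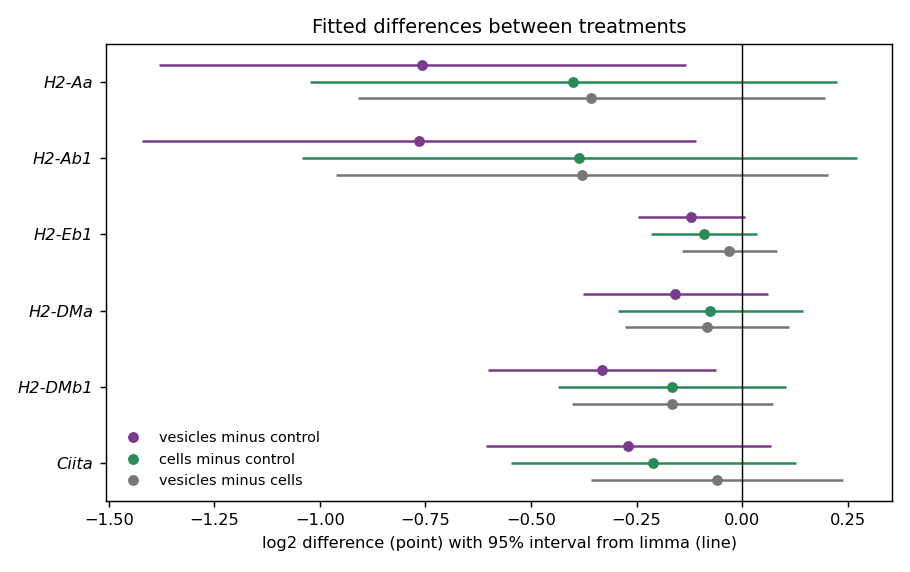
Fitted log2 differences (x axis; points) with 95% intervals from limma (lines) for the 6 class II genes in vesicle against control, cell against control and vesicle against cell hearts. All 18 points lie below 0, from −0.77 for H2-Ab1 in vesicle against control hearts to −0.030 for H2-Eb1 in vesicle against cell hearts, and none passed after adjustment over all genes.

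The sham heart could be set only against control array 1 of the same experiment, with no replicate. Its log2 difference was 0.0090 for H2-Ab1, 0.018 for H2-Aa and 0.039 for H2-Eb1, and 0.0000 to 0.034 for the other 3 genes. The 2 control arrays differed far more: control array 2 exceeded control array 1 by 1.03 for H2-Ab1, 0.96 for H2-Aa, 0.53 for Ciita, 0.34 for H2-DMb1, 0.29 for H2-DMa and 0.24 for H2-Eb1. Between 95.4% and 99.9% of all genes had a smaller or opposite gap. With treatment in the fit, all 6 genes were lower in experiment 9 than in experiment 1 (58.2% of all genes were), from −0.44 ± 0.21 for H2-Ab1 to −0.11 ± 0.040 for H2-Eb1. None passed (limma's adjusted p from 0.387 to 0.558, 0% of all genes called). H2-Eb1 alone had an unadjusted p under 0.05, against 6.56% of all genes lower at that level. The median of the 6 was −0.14, and −0.061 without either one of the control arrays. Macrophage markers were lower in experiment 9 for 14 of 15 genes, against 58.2% of all genes, with a median of −0.25. Of these markers 7 had an unadjusted p under 0.05, against 6.56% of all genes lower at that level. Heart muscle markers were higher for 5 of 5, with a median of 0.072, against a median of −0.010 over all genes. In either list 0 genes passed. The part of these markers in the class II values was not tested.

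Other chains of the class II region shared the high value of control array 2, except H2-Oa, and none of the 5 was lowest on vesicle array 2. H2-Ea, the I-E alpha chain, which RefSeq lists as a transcribed pseudogene in the C57BL/6J assembly, stood at 5.04, 5.07 and 5.16 on the vesicle arrays, 5.04, 5.24 and 5.32 on the cell arrays, 5.16 on the sham array, and 5.13 and 5.60 on the control arrays. Its fitted difference was −0.32 ± 0.095 after vesicles and −0.20 ± 0.095 after cells. After vesicles H2-DMb2, the second beta chain of the chaperone, stood at −0.29 ± 0.11, and H2-Ob, a chain of the H2-O modulator of that chaperone, at −0.091 ± 0.034. H2-Eb2 stood at −0.091 ± 0.037. H2-Ob and H2-Eb2 each had the very same deposited value on 7 of the 9 arrays, which narrows their spread. For H2-Eb2 the vesicle arrays and control array 1 all stood at 4.41, against 4.57 on control array 2. For H2-Ob vesicle arrays 2 and 3 and control array 1 stood at 4.25, against 4.39 on control array 2. Of the 5 further chains, 4 lay below 0 after vesicles (60.3% of all genes did) and 4 after cells (55.7% did), and 0 passed in any comparison. Control array 2 was the highest array for 4 of the 5, against 24.5% of all genes. H2-Oa, a chain of H2-O, was highest on vesicle array 3 (4.60) and lowest on control array 1 (4.34).

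Genes that prepare peptides for class II molecules were mixed. Of 10 measured proteases and helpers, 6 lay above 0 and 4 below after vesicles, with a median of 0.0025, and 0 passed. Ctss, the cathepsin that trims the invariant chain, stood at 7.20, 7.18 and 7.75 on the vesicle arrays, 7.34, 7.95 and 7.53 on the cell arrays, 7.52 on the sham array, and 7.25 and 8.28 on the control arrays, with a fitted −0.48 ± 0.27 after vesicles. The cathepsin Ctsh stood at −0.11 ± 0.081, Marchf1, a ubiquitin ligase that takes class II molecules off the surface, at −0.054 ± 0.046, and Sppl2a, the protease that clears the last invariant chain fragment, at 0.052 ± 0.031.

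Transcription factors in a list built around class II promoters (RFX and NF-Y subunits, Creb1, Irf4 and Irf8) were nearly level. Of 9 measured, 3 lay above and 6 below 0 after vesicles, with a median of −0.024, and 0 passed. The lowest p-values belonged to Nfyc, a subunit of NF-Y (−0.089 ± 0.046), Irf8, a factor of dendritic cells and macrophages (−0.13 ± 0.068), Creb1 (0.082 ± 0.048) and Rfxap, a subunit of the RFX complex (−0.024 ± 0.015). Of 8 genes of interferon gamma signalling, 4 lay above and 4 below 0 after vesicles, and 0 passed. Irf1, an interferon-induced factor, stood at −0.33 ± 0.091, with all vesicle arrays (6.65 to 6.80) below both control arrays (6.91 and 7.19). Such a lack of overlap, lower after vesicles, held for 7.17% of all genes, and Irf1 exceeded the negative control percentile on 1 of 9 arrays. The sham array, which received no vesicles, had the lowest Irf1 of the 9, at 6.65. Ifngr1, a chain of the interferon gamma receptor, stood at 0.17 ± 0.051. Its values were 8.17, 8.16 and 8.06 on the vesicle arrays, 7.99 and 7.94 on the control arrays and 8.14 on the sham array. Vesicle array 3 and cell arrays 2 and 3 shared the very same deposited value of Ifngr1, which narrows its spread. Jak1 stood at 0.053 ± 0.036 and Jak2 at 0.043 ± 0.031.

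Class I presentation, which shows peptides from inside the cell, had its lowest score on the same vesicle array and its highest on cell array 2. All 8 measured genes lay below 0 after vesicles (median −0.27), as did 60.3% of all genes. All 8 also lay below 0 against cell hearts (median −0.25), as did 50.6% of all genes, and 0 passed in either. In limma's test the unadjusted p was under 0.05 for 3 of 8 after vesicles and 4 of 8 against cell hearts. Of all genes 4.53% and 2.59% were lower at that level. For the class II genes these counts were 3 of 6 and 0 of 6. H2-K1, a classical class I chain, stood at −0.44 ± 0.19 in vesicle against control hearts and −0.45 ± 0.17 in vesicle against cell hearts, and H2-D1 at −0.43 ± 0.16 and −0.42 ± 0.14. After cells the 8 genes had a median of −0.011, with 2 above and 6 below 0 (55.7% of all genes lay below 0). Cell array 2 held the highest class I score of the 9 arrays, 0.28, followed by control array 2 at 0.25; a score is the mean over a list of each gene's log2 value less its own mean over the 9 arrays. Control array 2 was the highest array for 4 of the 8 class I genes (Psmb9, Tap1, Tap2 and Tapbp), against 24.5% of all genes. The class II score was 0.14 on cell array 2 and 0.49 on control array 2. Among 6 costimulatory genes Cd274, which encodes the inhibitory ligand PD-L1, stood at −0.77 ± 0.28 after vesicles. All vesicle arrays (6.20 to 6.73) lay below both control arrays (6.86 and 7.62), with the sham array among the vesicle arrays at 6.63. Such a lack of overlap, lower after vesicles, held for 7.17% of all genes, and Cd274 exceeded the negative control percentile on 1 of 9 arrays. Of the 6 costimulatory genes 0 passed.

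In whole hearts, fewer class II cells and less class II RNA per cell cannot be told apart, so markers of the cells that carry class II molecules are given beside the profile. On control array 2 the scores of dendritic cell markers (10 genes, 0.15), T and NK cell markers (11 genes, 0.14) and B cell markers (9 genes, 0.096) were the highest of the 9 arrays, on which the others ran from −0.068 to 0.059, −0.048 to 0.0090 and −0.026 to 0.0033. That array was the highest for 7 of 10, 9 of 11 and 8 of 9 of these genes, again against 24.5% of all genes. None of the 3 lists has a gene whose mean exceeds the negative control percentile. Of the dendritic cell list, Itgax, which encodes the integrin CD11c, stood at 5.45 on control array 2, against 4.98 or less on the others. In the same list Zbtb46 was highest on control array 1 (6.30), and Xcr1 (3.51) and Clec9a (4.05) were highest on cell array 2.

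Vesicle array 2, where the I-A genes were lowest, did not stand out in those lists: it was the lowest array for 0 of 10 dendritic cell markers, 1 of 9 B cell markers, 1 of 11 T and NK cell markers and 1 of 15 macrophage markers. It was the lowest for 6 of 8 class I genes, against 7.76% of all genes. Vesicle array 1, the next lowest for the I-A genes, had the lowest dendritic cell score (−0.068) and T and NK cell score (−0.048) of all arrays. The lowest B cell score was on cell array 1 and the lowest macrophage score on control array 1. The macrophage score was −0.088, −0.021 and 0.17 on the vesicle arrays, −0.17, 0.12 and 0.061 on the cell arrays, 0.0094 on the sham array, and −0.18 and 0.10 on the control arrays. Of the 15 macrophage markers 10 lay above 0 after vesicles, with a median of 0.020, and 0 passed. Folr2, a receptor of resident macrophages, stood at 0.25 ± 0.10 and Ccr2, the receptor of recruited monocytes, at −0.32 ± 0.14. For Ccr2 the vesicle and control arrays overlapped, and every array lay below the negative control percentile. Folr2 exceeded that percentile on 3 of 9 arrays. A shift between resident and recruited macrophages was not tested. The part of these cell markers in the class II values was not tested.

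**Figure D5:**
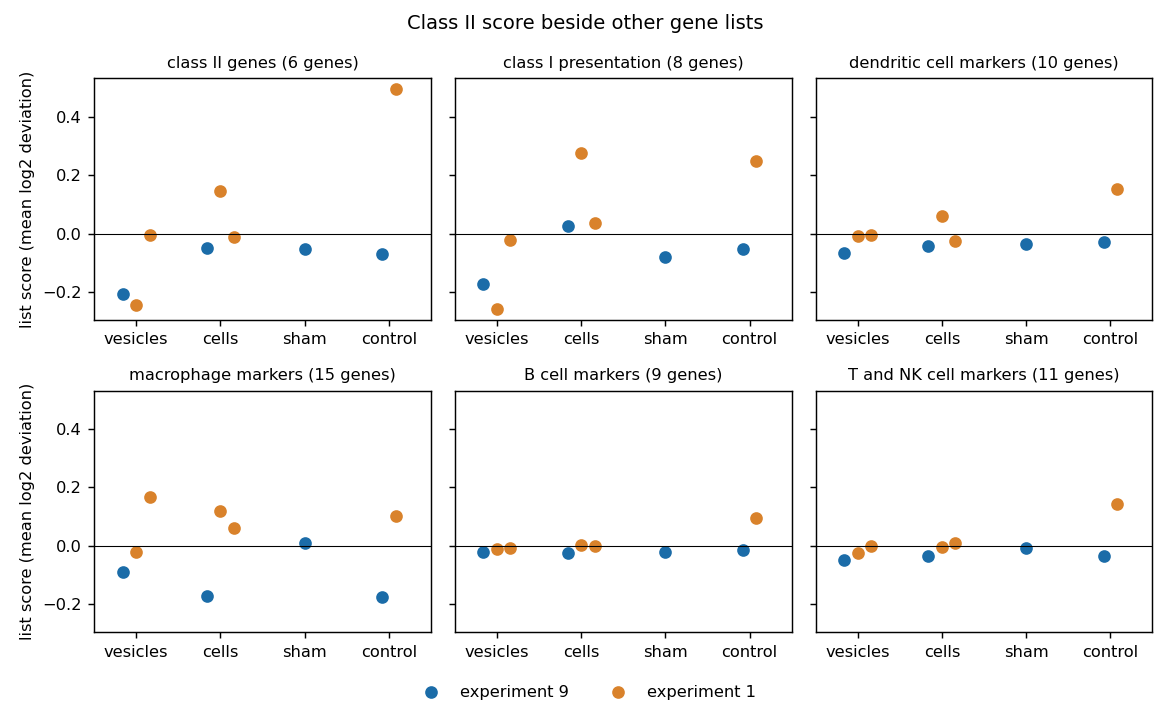
List scores (y axis: mean over the genes of a list of the log2 value less that gene's mean over 9 arrays) for class II genes, class I presentation and markers of 4 cell types, by group on the x axis, with 1 point an array, coloured by experiment. Control array 2 is highest for class II genes (0.49) and for dendritic, B, and T and NK cell markers, cell array 2 for class I genes (0.28) and vesicle array 3 for macrophage markers (0.17).

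Vesicle array 3, the highest of the vesicle arrays for both I-A genes, also held lung transcripts. Its score over 6 lung markers was 2.14, against 0.11 on the sham array and −0.26 or lower on the others, with the surfactant protein gene Sftpc at 9.75, against 4.28 to 6.35 elsewhere. Without vesicle array 3, H2-Ab1 stood at −0.85 ± 0.30 and H2-Aa at −0.81 ± 0.29 against control hearts, with a median of −0.33 over the 6 genes and no call (limma's adjusted p = 0.808 for both I-A genes). The part of lung RNA in the class II values was not tested.

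The genes most like H2-Ab1 were sought among 5146 named genes above the negative control percentile, by Pearson's r over the 9 arrays, each relative to its experiment's mean; H2-Ab1 stood for the class II genes because it was the only one above that level. The closest was Gbp2, an interferon-induced GTPase (r = 0.98, and 0.96 without control array 2, where it ranked 2), followed by Traj25, a joining segment of the T cell receptor alpha chain (0.95), Ctss (0.95), LOC547349 (0.95), Gal3st1 (0.93), Fzd2 (0.92), Vamp1 (0.90), Alkbh2 (0.90), Rnu12 (0.89) and Zfp574 (0.89). Gbp2 stood at 7.46, 7.08 and 7.52 on the vesicle arrays, 7.63, 7.94 and 7.63 on the cell arrays, 7.63 on the sham array, and 7.63 and 8.29 on the control arrays. Its order over the arrays was close to that of H2-Ab1, with control array 2 and cell array 2 highest and vesicle array 2 lowest. Without control array 2 the r of the 10 genes lay between 0.73 and 0.96 and their ranks between 2 and 81.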

How the data were processed

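Per the labels' protocols, Trizol RNA of whole frozen hearts was hybridised to Affymetrix whole-transcript arrays. The authors deposited 1 normalized value per probe set and array, read here as log2 from its range (1.55 to 14.2). Partek is named without role in the submitters' processing notes. Background correction and probe summary were not given in the sources used here. Of 32750 probe sets in the platform annotation table, 30604 carry 1 symbol and 2146 several, which were not used. A RefSeq table gave current symbols through Entrez numbers (22818 matched), and the probe set with the highest mean was kept, which left 30142 genes. Of these, 61.1% have the same deposited value on 3 or more of the 9 arrays, which narrows their spread.

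Differences were fitted with limma 3.58.1 under R 4.3.3 (lmFit and eBayes) to the 8 arrays of the vesicle, cell and control groups, with the experiment as a fixed block, 4 residual and 1.18 prior degrees of freedom, and Benjamini-Hochberg adjustment over all genes at 0.05. Values after ± are standard errors and tests are two-sided. The number of arrays limits precision. All 6 genes were named, with up to 4 genes lowest in unadjusted p from each further list and the 10 genes most like H2-Ab1. For these 10, gene models, microRNAs and small nucleolar RNAs were left out by patterns in their names. These patterns did not catch LOC547349 or the small RNA Rnu12. Genes named only for a level or a marker (Itgax, Zbtb46, Xcr1, Clec9a, Sftpc, Gbp2's values) were chosen after their values were seen. The genes and lists were chosen with earlier results of these data known. Alternatives were another normalization, filters, no block, the sham array as a control, leaving out each array and, added after seeing the data, a treatment by experiment term and the VTS number of the titles as a block. The fit was tested on simulated data.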

Additional observations from a re-analysis of the deposited data

Results flagged for a closer look

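For 5 results every array of experiment 9 differed from its control in the opposite direction to every array of experiment 1. Experiment 9 has 1 array per treatment, and all of experiment 1 is set against control array 2. That control array was the highest of the 9 for 24.5% of all genes. Against the control array of its experiment, Ciita on the vesicle arrays stood at 0.012 in experiment 9 and at −0.56 and −0.45 in experiment 1, a gap between experiments of 0.52 ± 0.096 (SE; limma's adjusted p = 0.162 for a treatment by experiment term). On the cell arrays Ciita stood at 0.078 and at −0.45 on both arrays of experiment 1 (gap 0.53 ± 0.096, adjusted p = 0.158), H2-Ab1 at 0.043 and at −0.91 and −0.58 (gap 0.79 ± 0.48, adjusted p = 0.558), H2-Eb1 at 0.010 and at −0.20 and −0.14 (gap 0.18 ± 0.049, adjusted p = 0.246) and H2-DMa at 0.041 and at −0.25 and −0.10 (gap 0.22 ± 0.17, adjusted p = 0.673). None of the gaps passed, in a fit with 2 residual degrees of freedom that called 0 of 30142 genes; 5457 genes had an unadjusted p under 0.05 for the vesicle gap and 5666 for the cell gap.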

How the results depend on the processing

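All 6 genes were below 0 in vesicle against control hearts under each alternative that kept them, except Ciita without control array 2 (0.016). On leaving out each array in turn, the median over the 6 genes ran from −0.48 to −0.10 after vesicles and from −0.37 to 0.037 after cells, genes called from 0 to 823 after vesicles and from 0 to 901 after cells, and class II genes called from 0 to 1 in both; the upper counts came without control array 1, where Ciita alone of the 6 passed (adjusted p = 0.0432 after vesicles and 0.0468 after cells). In experiment 1 alone, which has control array 2 as its only control, the medians were −0.48 and −0.37 and the calls 1662 and 1731 of all genes, against 0 in the whole data, with 0 of the 6. With the sham array among the controls 1 gene was called after cells, and without genes tied on 3 or more arrays 2 genes differed between the experiments; none was among the 6. Filters left out some of the 6: H2-Ab1 alone passed the negative control level. The titles also carry a number after the letters VTS, whose meaning they do not give and which vesicle and cell arrays share in 3 pairs. Over all genes the deviations from the group means correlated at 0.12, 0.18 and 0.031 within the pairs, and not every array correlated best with its own number, so the numbers were not taken to pair the arrays. With that number as a replicate block, chosen after seeing the data, 0 genes were called in each comparison and the medians over the 6 genes were −0.30 after vesicles, −0.19 after cells and −0.12 for vesicle against cell hearts. Vesicle minus cell values for VTS 1, 2 and 3 were −0.79, 0.013 and −0.36 for H2-Ab1 and −0.79, −0.047 and −0.23 for H2-Aa. Levels near or below the negative controls limit H2-Aa, H2-Eb1, H2-DMa, H2-DMb1 and Ciita. H2-Ab1 also lay near that level on vesicle array 1 (7.21 against 7.20) and vesicle array 2 (7.17 against 7.19).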
